A study of Mus musculus with 8 samples.

Results

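The spleens of unirradiated mice carrying the R527C change in Lmna were compared with those of unirradiated wild-type mice over all expressed autosomal genes. The comparison used 4 of the 8 libraries of the series, 2 from wild-type and 2 from Lmna R527C mutant mice, all C57BL/6, 6 weeks old, given no radiation and sampled at day 0. Each library was made from mRNA of a whole frozen spleen, and the series as a whole was set up to study how the mutation causes senescence, with or without a 4 Gy dose. Genes were counted as deposited, and 16665 of them carried enough reads to be tested, of which 16077 lay on autosomes. The labels do not say whether the mutant mice carried 1 or 2 copies of the mutant allele, which sex they were, or whether the replicates were separate mice, so each p-value rests on the spread among these 4 libraries, and part or all of that spread may be technical.

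Lmna encodes lamins A and C, filaments that line the inner face of the nuclear envelope and anchor chromatin there. Lamin A is made as a precursor that is farnesylated and then cut by the protease ZMPSTE24, and mutations in the gene or in the protease cause premature ageing syndromes. The spleen filters blood in its red pulp, where macrophages take up old red cells and recycle their iron, and it holds B and T lymphocytes in its white pulp. In mice it is also a site of blood cell formation, so that developing neutrophils and red cells are found in it, and plasma cells that secrete antibody lie in the red pulp. Interferon-stimulated genes are a set that many cell types switch on when interferon receptors signal, through factors that bind a short promoter sequence, the interferon-stimulated response element.

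Of the 16077 autosomal genes, 461 passed an adjusted p of 0.05 (edgeR quasi-likelihood test with Benjamini-Hochberg adjustment over all genes tested), which is 2.87% of them. In the mutants 372 genes rose, 2.31% of those tested, and 89 fell, 0.554%. The higher genes included genes of neutrophils and their precursors, interferon-stimulated genes and genes of antibody-secreting cells. Of the 372, 157 were in none of the gene lists used here. The lower ones included genes of mature B cells and of elastic fibres, but 55 of the 89 were in none of the lists. The median log2 fold change was 1.60 among the genes that rose and -1.06 among those that fell, and 306 of the former and 50 of the latter differed by more than 2-fold. The median over all autosomal genes was 0.00, with 50.4% of them higher in the mutants. An unadjusted p under 0.05 was reached by 2465 of the 16077, 1356 of them higher and 1109 lower in the mutants. Counts at that unadjusted level in the lists below stand beside this share. The libraries of the 2 genotypes did not overlap in any of the 461 called genes, nor in 46.4% of all autosomal genes. In bulk tissue, fewer cells of a type and less RNA per cell cannot be told apart.

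**Figure D1:**
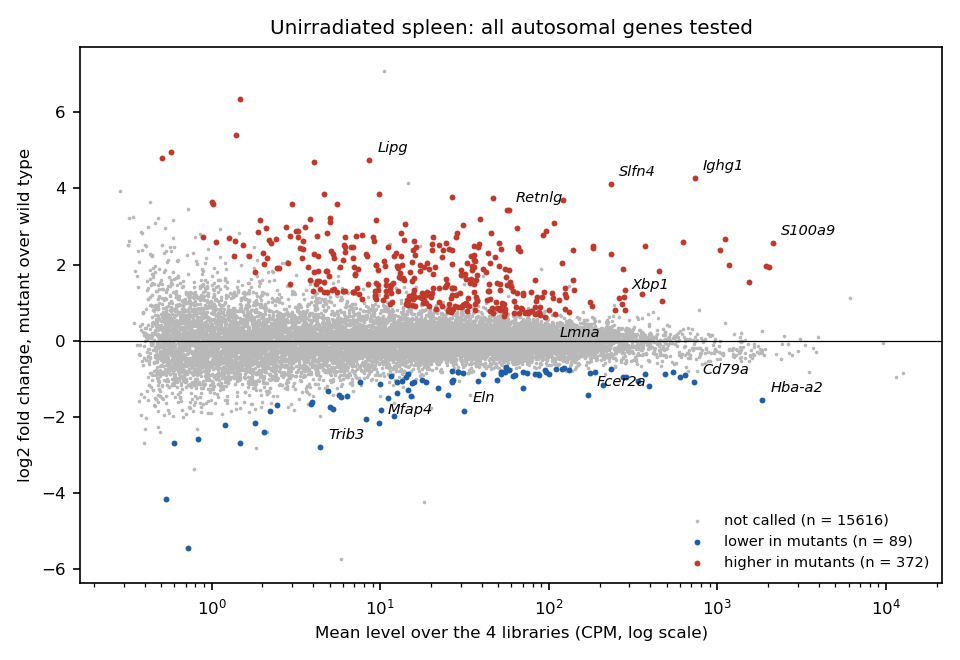
Log2 fold change of each autosomal gene tested, mutant over wild type (vertical axis), against its mean level over the 4 libraries in CPM, counts scaled by library size (horizontal log axis). Red points are the 372 genes called higher, blue points the 89 called lower and grey points the rest, and the red points outnumber the blue at every level above 1 CPM.

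Levels below are in CPM, the counts of a gene scaled by the size of its library. Library totals ran from 14738248 to 19455470 counts, and 3 counts, the limit that a count of 0 allows, corresponded to 0.149 to 0.214 CPM (counting error only). The 4 libraries held the defining transcripts of spleen, among them Cd79a, Cd3e, Spic, Vcam1, Stab2, Madcam1 and the splenic mesenchyme factor Tlx1, while the liver transcript Alb had 0 counts in each. Wild-type replicate 2 stood apart. Over all genes tested, 5.83% differed by more than 2-fold between the wild-type replicates and 6.01% and 6.54% between wild-type replicate 1 and the mutants, but 12.6% and 10.2% between wild-type replicate 2 and the mutants. It also had the most RNA of fat and mesothelium, the tissues around the organ: the fat hormone Adipoq stood at 0.747 and 10.6 CPM in the wild-type and 0.403 and 3.15 in the mutant libraries. Without wild-type replicate 2, 635 genes were called (508 higher, 127 lower), and without wild-type replicate 1, 1909 (1157 higher, 752 lower). Leaving out mutant replicate 1 gave 391 higher and 55 lower genes, and leaving out mutant replicate 2 gave 284 and 52.

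The mutated gene itself was not called. Lmna (chr3:88480147-88509956, GRCm38) stood at 123 and 91.7 CPM in the wild-type spleens and at 101 and 98.9 in the mutant spleens. The groups overlapped, and the log2 fold change was -0.11 ± 0.17 (SE; adjusted p = 0.818), where here and below an error after a fold change is its standard error from the fit, with n = 2 libraries of each genotype. A change of 1 amino acid is not visible in gene counts, so this level does not check the genotype labels. Of the 8 genes of lamins and prelamin processing, only Zmpste24, the prelamin protease, passed the test. It read 54.6 and 44.8 CPM in wild type and 82.3 and 83.2 in the mutants, both mutants above both wild types, a log2 fold change of 0.74 ± 0.16 (adjusted p = 0.033). That call was lost when wild-type replicate 2, mutant replicate 1 or mutant replicate 2 was left out. Lmnb1, which encodes the B-type lamin of dividing cells, read 167, 154, 188 and 205 CPM in the same order and did not pass (adjusted p = 0.395). None of the 15 tested genes of the inner nuclear membrane and its partners passed in edgeR, 4 had an unadjusted p under 0.05, and limma-voom and DESeq2 called 1 each. Lbr, the lamin B receptor, read 219 and 162 CPM in wild type and 272 and 222 in the mutants (adjusted p = 0.393), and Sun2, which links the lamina to the cytoskeleton, 222 and 222 against 197 and 257 (adjusted p = 0.954). None of the 22 heterochromatin genes tested passed in edgeR, limma-voom or DESeq2, and 0 had an unadjusted p under 0.05.

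The 3 groups of neutrophil genes had the highest medians of the 62 lists with all 4 libraries. Neutrophils store their proteins in granules made in sequence as the cell matures: primary granules with myeloperoxidase and serine proteases, then secondary and tertiary granules with lactoferrin and metalloproteinases. Of 11 primary granule and precursor genes tested, 9 rose and none fell, the median log2 fold change being 2.17. Without mutant replicate 2 that median was 1.25, with 8 genes called, and with a robust prior for the spread 2 of the 11 were called. Of 12 secondary and tertiary granule genes 11 rose, with a median of 2.39. Among 28 genes of mature neutrophils 22 rose, with a median of 2.36. These lists were chosen with earlier results of these data known and are not independent evidence of their direction.

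Among the primary granule genes, Mpo, which encodes myeloperoxidase, stood at 60.8 and 53.5 CPM in the wild-type spleens and at 153 and 461 in the mutant ones. Its log2 fold change was 2.43 ± 0.40 (adjusted p = 0.00972), and mutant replicate 2 stood well above mutant replicate 1. Ctsg, the granule protease cathepsin G, followed the same order, with 22.1 and 19.5 CPM in wild type and 68.4 and 154 in the mutants (2.42 ± 0.32, adjusted p = 0.00319). Ms4a3, a membrane protein of granulocyte-monocyte precursors, rose from 11.6 and 10.8 CPM to 39.5 and 91.2 (2.54 ± 0.33, adjusted p = 0.0032). Cebpe, the transcription factor of granule maturation, read 8.72 and 6.21 CPM against 22.5 and 56.3 (2.39 ± 0.38, adjusted p = 0.00813). In each of these genes both mutant libraries lay above both wild-type libraries, but with the robust prior Ctsg (adjusted p = 0.0764) and Cebpe (adjusted p = 0.112) lost their calls. Cebpa, a factor of earlier myeloid commitment, did not pass the test, at 27.3 and 29.3 CPM in wild type and 26.6 and 33.3 in the mutants.

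Granule genes of later stages rose as well. Mmp8, neutrophil collagenase, stood at 7.82 and 5.35 CPM in wild type and 49.1 and 61.2 in the mutants (log2 fold change 3.05 ± 0.23, adjusted p = 0.000248). Mmp9, a gelatinase of tertiary granules, read 16.4 and 12.9 CPM against 69.1 and 105 (2.56 ± 0.23, adjusted p = 0.000456). Ltf, lactoferrin, rose from 198 and 161 CPM to 676 and 1476 (2.58 ± 0.33, adjusted p = 0.00253). Padi4, the enzyme that citrullinates histones in neutrophils, went from 5.38 and 4.71 CPM to 19.9 and 33.0 (2.38 ± 0.27, adjusted p = 0.00157). None of these groups overlapped, and the 11 genes that rose numbered 10 to 11 when single libraries were left out.

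Receptors and effectors of mature neutrophils followed. Retnlg, a resistin-like protein of neutrophils, had the smallest p of the genes named here, with 9.57 and 9.63 CPM in wild type and 95.0 and 112 in the mutants (log2 fold change 3.43 ± 0.17, adjusted p = 3.04e-05). S100a8, a subunit of the calcium-binding protein calprotectin, rose from 315 and 285 CPM to 1343 and 2473 (2.67 ± 0.29, adjusted p = 0.00118), and its partner S100a9 from 655 and 578 to 2638 and 4620 (2.56 ± 0.29, adjusted p = 0.00157). Ly6g, the surface marker by which mouse neutrophils are identified, read 5.18 and 4.78 CPM against 21.6 and 34.0 (2.47 ± 0.26, adjusted p = 0.00108). Cxcr2, the chemokine receptor that draws neutrophils from the marrow, stood at 11 and 9.99 CPM in wild type and 40.4 and 45.0 in the mutants (2.02 ± 0.18, adjusted p = 0.000456), and Csf3r, the G-CSF receptor, at 32.0 and 27.5 against 80.2 and 94.0 (1.55 ± 0.16, adjusted p = 0.00108). Cd177, a neutrophil surface protein, Ifitm6, a myeloid transmembrane protein, and Chil1, a chitinase-like protein, rose as well, at log2 fold changes of 2.88, 3.08 and 2.72, and Cd177 lost its call with the robust prior (adjusted p = 0.115). Of 14 eosinophil, basophil and mast cell genes tested, none passed in edgeR, limma-voom or DESeq2, 8 higher and 1 lower had an unadjusted p under 0.05, and 5 were called higher without wild-type replicate 1. The median of that list was 0.82.

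Some monocyte and macrophage genes rose. Of 22 tested, 9 rose and none fell, around a median of 0.59 on the log2 scale, but 6 were called without mutant replicate 1 and 5 without mutant replicate 2. Itgam, an integrin subunit of myeloid cells, stood at 13.9 and 16.7 CPM in wild type and 40.1 and 69.9 in the mutants (1.85 ± 0.26, adjusted p = 0.00431). Ccr2, the receptor of inflammatory monocytes for CCL2, rose from 41.1 and 41.9 CPM to 91.0 and 108 (1.26 ± 0.15, adjusted p = 0.00216). Of 21 paired immunoglobulin-like and lectin receptors of myeloid cells, 10 rose, with a median of 0.84, falling to 6 without mutant replicate 2. Lilr4b, a receptor of the leukocyte immunoglobulin-like family, had the largest rise there, from 13.1 and 9.20 CPM to 76.7 and 82.5 (2.83 ± 0.20, adjusted p = 0.000248), with the mutant libraries close to each other. Members of this family share sequence, and reads could be split between them.

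Some genes of the list of resident splenic macrophages and iron recycling rose, where 2.31% of all autosomal genes did. Of 22 genes of red pulp macrophages and iron recycling, 2 rose, with a median log2 fold change of 0.14: Cd5l, a macrophage-secreted lipid-binding protein, from 55.6 and 53.5 CPM to 146 and 118 (1.28 ± 0.16, adjusted p = 0.00241), and Siglec1, the sialoadhesin of marginal metallophilic macrophages, from 26.9 and 14.9 to 44.1 and 47.1 (1.12 ± 0.25, adjusted p = 0.0408). Siglec1 lost its call without mutant replicate 2, and 5 genes of the list were called higher without wild-type replicate 1. Spic, the transcription factor of red pulp macrophages, read 78.8 and 70.2 CPM in wild type and 108 and 91.1 in the mutants and did not pass. None of the 16 dendritic cell genes tested passed in edgeR, limma-voom or DESeq2, and 1 had an unadjusted p under 0.05. Irf8, a factor of dendritic cell development, read 316 and 337 CPM in wild type and 289 and 305 in the mutants.

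**Figure D2:**
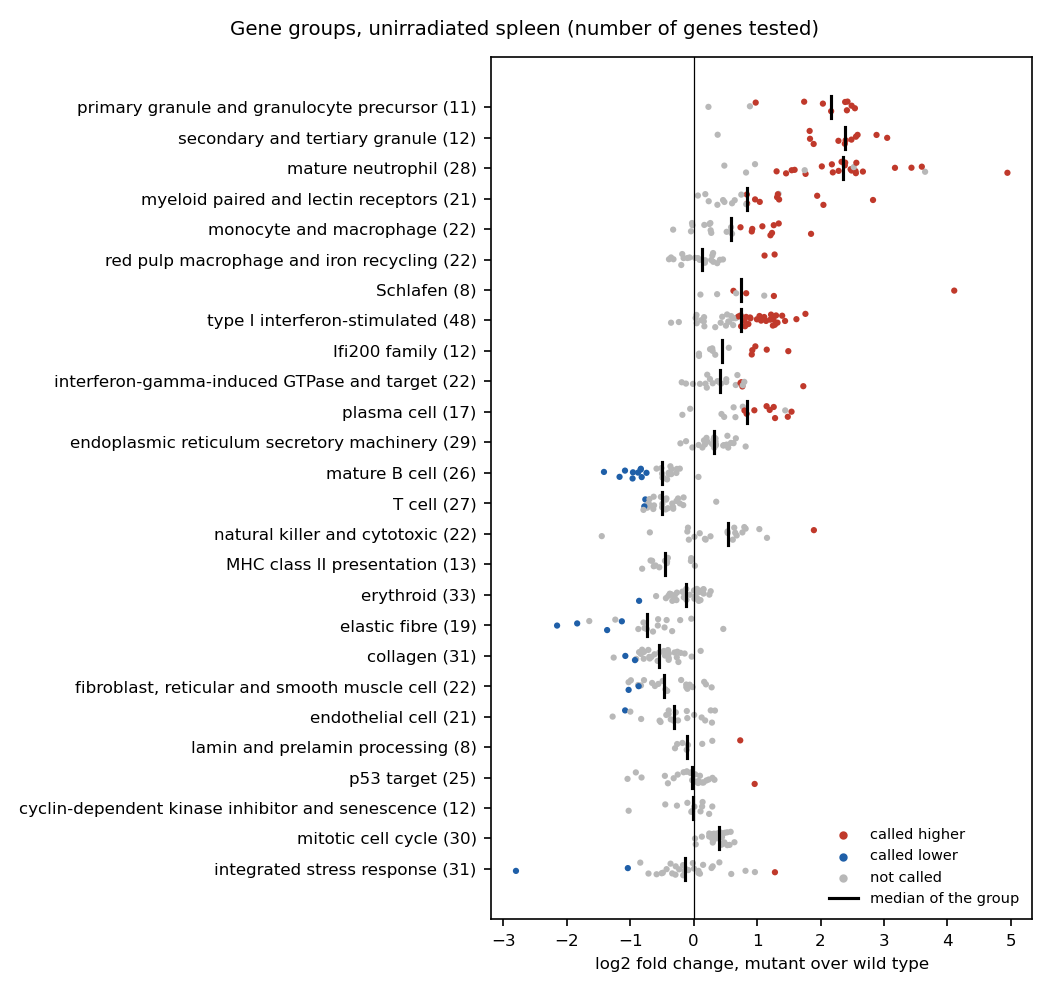
Log2 fold change, mutant over wild type, of the genes of 26 groups (1 point per gene; the number tested is in brackets). Red points passed the test as higher and blue as lower, the black bar is the group's median, and the neutrophil groups have medians of 2.17 to 2.39 while the lamin, p53 and kinase inhibitor groups centre near 0.

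Interferon-stimulated genes were higher. Of 48 tested, 26 rose and none fell, at a median log2 fold change of 0.75, and in 40 of the 48 both mutant libraries lay above both wild types, where 23.4% of all autosomal genes did. The count was 19 without mutant replicate 2 and 30 and 31 without a wild-type library. Ifi44, an interferon-induced protein, stood at 14.7 and 17.0 CPM in wild type and 49.0 and 48.4 in the mutants (1.62 ± 0.17, adjusted p = 0.00109). Oasl2, of the oligoadenylate synthetase family that senses double-stranded RNA, rose from 81.5 and 80.1 CPM to 189 and 215 (1.32 ± 0.15, adjusted p = 0.00159), and Mx1, an antiviral GTPase, from 42.5 and 48.4 to 100 and 121 (1.28 ± 0.16, adjusted p = 0.00247). In each of the 3 genes both mutant libraries lay above both wild types. Irf7, the factor that amplifies interferon production, rose from 199 and 226 CPM to 438 and 562 (1.23 ± 0.18, adjusted p = 0.00586). Isg15, a ubiquitin-like protein of the set, did not pass, at 251 and 326 CPM in wild type and 301 and 347 in the mutants (0.17 ± 0.18). Of 17 genes of nucleic acid sensing and interferon signalling, such as the receptor chain Ifngr1 and the kinase Jak1, edgeR and limma-voom called 0 and DESeq2 1, and 4 had an unadjusted p under 0.05.

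A stretch of chromosome 19 held 6 neighbouring called genes of this kind: Ifit2, Ifit3, Ifit1bl1, Ifit3b, Ifit1bl2 and Ifit1, a family of which some members bind foreign RNA. The interferon-stimulated response element, searched on both strands as GAAA and GAAA with any 2 bases between them, was in the RefSeq promoter (GRCm38.p6, 250 bases before to 50 after the start) of 18 of the 36 interferon-stimulated genes for which one was held, and in 4.08% of all 11138 promoters of tested autosomal genes. Among called higher genes it was in 31 of 214. In the interferon-stimulated list it was in 12 of 20 promoters of called and 6 of 16 of not called genes. It was also in 9 of 11 promoters of the Ifi200 family and 12 of 15 of interferon-gamma-induced GTPases and targets. In the latter list, 10 of 13 promoters of genes not called held it. The promoters are shown for Ifit1 and Ifit3, which both hold 2 matches, in capitals, in a stretch of 120 bases of this window upstream of the start; for Ifit3b the same 120 bases were identical to those of Ifit3, at 120 of 120 positions, and the 2 genes may share reads.
Ifit1: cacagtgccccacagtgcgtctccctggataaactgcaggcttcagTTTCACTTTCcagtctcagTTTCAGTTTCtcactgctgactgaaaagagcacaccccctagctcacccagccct
Ifit3: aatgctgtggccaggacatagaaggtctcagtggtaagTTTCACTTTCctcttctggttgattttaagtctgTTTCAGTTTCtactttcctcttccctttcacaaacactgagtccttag
These are the plus strand of chr19:34640739-34640858 and of chr19:34583335-34583454. Ifit1 stood at 52.8 and 60.8 CPM in wild type and 130 and 121 in the mutants (1.14 ± 0.15, adjusted p = 0.00342), and Ifit3 at 52.7 and 71.1 against 138 and 158 (1.26 ± 0.18, adjusted p = 0.00461). In the neutrophil gene lists the element was found in 0 of 9 primary granule, 0 of 11 secondary granule and 1 of 24 mature neutrophil promoters.

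The C/EBP element, searched on both strands as TTGC and AA with any 2 bases between them, was in 10.3% of all promoters, 3 of 9 primary granule promoters, 6 of 11 secondary and tertiary granule promoters and 6 of 24 mature neutrophil promoters. It was also in 6 of 11 promoters of the interferon-induced Ifi200 family and 6 of 16 of plasma cell genes, and in 39 of the 214 of genes called higher. C/EBP factors, of which Cebpe is one, drive granule genes in developing neutrophils. A match is a description of these letters, not of binding. In Retnlg and Mmp8 the capitals mark the match, on the plus strand of chr16:48872358-48872477 and chr9:7558309-7558428.
Retnlg: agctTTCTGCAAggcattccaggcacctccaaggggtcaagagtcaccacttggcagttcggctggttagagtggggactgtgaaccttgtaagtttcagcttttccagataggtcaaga
Mmp8: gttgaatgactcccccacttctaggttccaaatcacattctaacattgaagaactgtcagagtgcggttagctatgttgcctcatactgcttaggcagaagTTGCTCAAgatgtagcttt

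Slfn4 belongs to the Schlafen family, whose members are induced by interferon and regulate growth of immune cells. It stood at 26.8 and 24.5 CPM in wild type and 318 and 566 in the mutants (log2 fold change 4.11 ± 0.27, adjusted p = 0.000235), and 4 of 8 Schlafen genes rose, with a median of 0.75, 2 of them without mutant replicate 1. Slfn9 read 11.4 and 10.6 CPM against 25.6 and 27.2 (1.27 ± 0.19, adjusted p = 0.00578). The Ifi200 family of DNA-binding sensors had 5 of 12 genes called, such as Ifi204, from 23.1 and 23.3 CPM to 64.5 and 65.9 (1.49 ± 0.16, adjusted p = 0.00106), falling to 2 without mutant replicate 2. Interferon-gamma-induced GTPases and targets had 4 of 22 called, with a median of 0.42, with 1 without mutant replicate 1, 2 without mutant replicate 2 and 7 in DESeq2. Gbp10, a guanylate-binding protein, was the largest of them, from 3.44 and 3.07 CPM to 11.9 and 9.76 (1.73 ± 0.25, adjusted p = 0.0055).

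Antibody genes and plasma cell genes rose. Counts of immunoglobulin and T cell receptor segments made up 1.35% and 1.46% of the wild-type and 3.02% and 3.01% of the mutant libraries. Of 90 heavy chain variable segments tested, 50 rose and none fell, at a median log2 fold change of 1.87, and of 93 kappa variable segments 39 rose and 1 fell, with a median of 1.20. Ighv3-6, a heavy chain variable segment, stood at 21.2 and 13.4 CPM in wild type and 273 and 179 in the mutants (3.69 ± 0.27, adjusted p = 0.000248). Among heavy chain variable segments it was the most counted in both mutant libraries, at 11.2% and 10.6% of heavy variable counts. Without wild-type replicate 1 the calls numbered 78 heavy and 59 kappa segments higher. Variable segments share sequence, so reads can be split between near-identical members, and single segments are uncertain.

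The constant regions showed a shift in isotype, the class of heavy chain that a B cell makes before or after class switching. IgM and IgD are made by naive B cells, and IgG and IgA after switching. Switched isotypes took 32.2% and 33.9% of heavy chain constant counts in wild type and 68.6% and 68.1% in the mutants. Ighg1 rose most, from 73.8 and 71.1 CPM to 947 and 1840 (log2 fold change 4.27 ± 0.31, adjusted p = 0.000248), from 1.14% and 0.970% of heavy chain counts to 6.95% and 12.3%. Ighg2b rose from 487 and 465 CPM to 1648 and 2116 (1.98 ± 0.21, adjusted p = 0.00113) and Igha from 575 and 1097 to 2679 and 3688 (1.93 ± 0.32, adjusted p = 0.00984). Ighm did not pass, at 3615 and 3960 CPM against 3821 and 4349 (adjusted p = 0.87), while Ighd, the naive B cell isotype, fell from 785 and 886 to 455 and 439 (-0.90 ± 0.18, adjusted p = 0.0237). Ighg2c rose from 822 and 747 CPM to 3866 and 2292 (1.97 ± 0.27, adjusted p = 0.00441). It took 12.7% and 10.2% of heavy chain counts in wild type. It stood at 28.4% in mutant replicate 1 and 15.3% in mutant replicate 2, the widest gap between the mutant spleens among the isotypes.

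**Figure D3:**
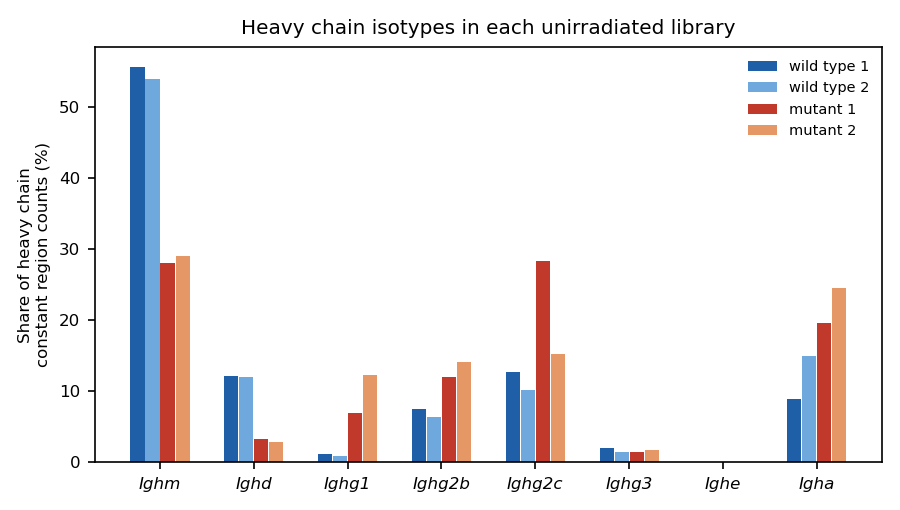
Share of heavy chain constant region counts held by each isotype, in percent, in the 2 wild-type (blue) and 2 mutant (red) libraries. Ighm takes 55.7% and 54.0% in wild type and 28.0% and 29.0% in the mutants, which have higher shares of Ighg1, Ighg2b, Ighg2c and Igha.

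Plasma cell genes went with the antibody genes. Of 17 tested, 9 rose and none fell, around a median of 0.84 on the log2 scale; the count was 7 without mutant replicate 1 and 7 without mutant replicate 2. Jchain, which joins antibody polymers, rose from 709 and 860 CPM to 2525 and 2049 (1.54 ± 0.22, adjusted p = 0.00489), and Sdc1, the plasma cell surface marker, from 12.2 and 14.0 to 38.2 and 34.9 (1.48 ± 0.18, adjusted p = 0.00222). Xbp1, the factor of the secretory programme, stood at 157 and 189 CPM in wild type and 383 and 383 in the mutants (1.15 ± 0.17, adjusted p = 0.00515), and Prdm1, the plasma cell master regulator, at 9.92 and 9.49 against 17.2 and 20.5 (0.96 ± 0.21, adjusted p = 0.0361). Of 29 genes of the endoplasmic reticulum secretory machinery, which folds antibody, none passed in edgeR or limma-voom, DESeq2 called 4, and 10 had an unadjusted p under 0.05, all higher. The median was 0.33, and 4 were called without wild-type replicate 2.

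Genes of mature B cells fell. Of 26 tested, 10 fell and none rose, and 25 had a negative log2 fold change, with a median of -0.49. The count fell to 3 without mutant replicate 1 and 2 without mutant replicate 2. Fcer2a, the low-affinity IgE receptor of follicular B cells, fell most, from 246 and 251 CPM to 104 and 82.5 (-1.41 ± 0.17, adjusted p = 0.0019). Fcmr, the IgM receptor, read 256 and 320 CPM in wild type and 131 and 126 in the mutants (-1.17 ± 0.17, adjusted p = 0.005), and Spib, a B cell transcription factor, read 372 and 391 against 206 and 186 (-0.96 ± 0.16, adjusted p = 0.0103), a call lost without mutant replicate 2. Cd79a, the antigen receptor signalling chain, stood at 807 and 1164 CPM in wild type and 435 and 497 in the mutants (-1.08 ± 0.22, adjusted p = 0.0255). Ms4a1, which encodes CD20, and Cr2, the complement receptor of follicular and marginal zone B cells, did not pass, at log2 fold changes of -0.37 and -0.35. Of 13 genes of MHC class II presentation, by which B cells and other cells show antigen to helper T cells, edgeR and limma-voom called 0 and DESeq2 6 lower, and 7 had an unadjusted p under 0.05. Their median was -0.45, and edgeR called 6 lower without wild-type replicate 1. H2-Aa, a class II chain, read 1719 and 2008 CPM in wild type and 1400 and 1328 in the mutants (adjusted p = 0.333).

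T cell genes had a median like that of the mature B cell genes. Of 27 tested, 26 had a negative log2 fold change, with a median of -0.49, and 2 passed in edgeR and 10 in DESeq2. The 2 were Thy1, a T cell surface protein, from 144 and 187 CPM to 94.2 and 101 (-0.76 ± 0.17, adjusted p = 0.0418), and Cd8b1, a chain of the CD8 coreceptor, from 65.3 and 81.0 to 46.0 and 39.4 (-0.78 ± 0.17, adjusted p = 0.0371). The number called in edgeR was 14 without wild-type replicate 1 and 0 without wild-type replicate 2 or mutant replicate 2. Cd4, the helper T cell coreceptor, read 112 and 107 CPM in wild type and 99.6 and 84.9 in the mutants and was not called. The granzyme Gzmb, of cytotoxic cells, rose from 8.27 and 8.13 CPM to 28.1 and 33.0 (1.90 ± 0.20, adjusted p = 0.00106), the only called gene of 22 natural killer and cytotoxic genes, where 5 were called higher without wild-type replicate 1 and 3 without wild-type replicate 2 or mutant replicate 2.

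**Figure D4:**
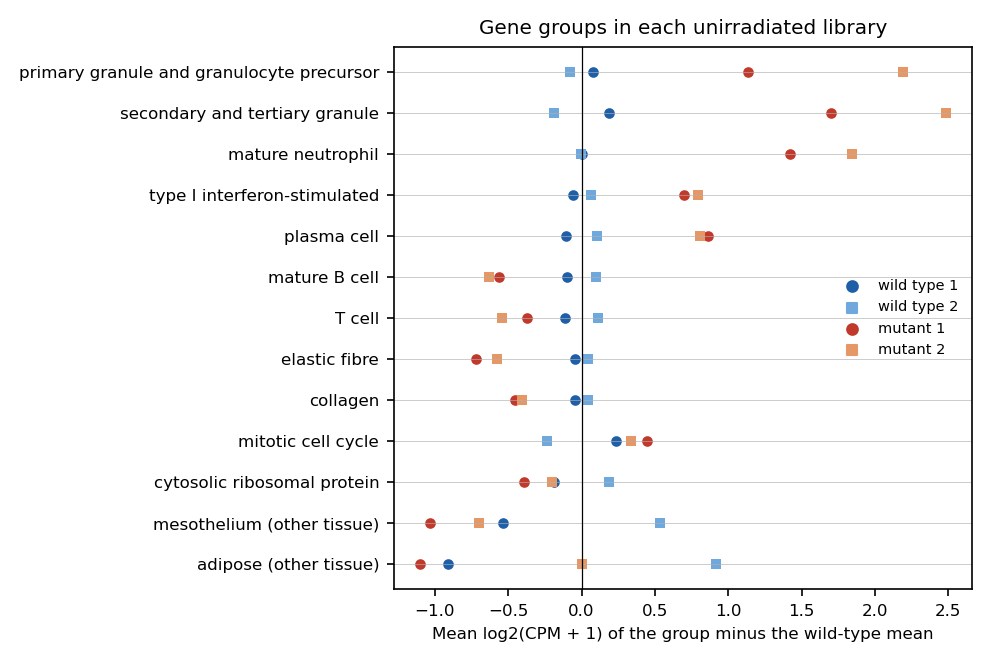
Mean log2(CPM + 1) of the genes of each group in each library, minus the mean of the 2 wild-type libraries (horizontal axis). Blue symbols are wild type and red mutant, and circles and squares replicates 1 and 2; neutrophil groups rise most and mutant replicate 2 sits above mutant replicate 1, while wild-type replicate 2 stands out in fat and mesothelium.

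Several elastic fibre genes fell. Of 19 tested, 4 fell and none rose, with a median log2 fold change of -0.74. Eln, elastin, stood at 51.2 and 47.1 CPM in wild type and 12 and 15.6 in the mutants (-1.83 ± 0.19, adjusted p = 0.00106). Mfap4, a microfibril glycoprotein, read 15.6 and 16.8 CPM against 3.53 and 3.73 (-2.15 ± 0.23, adjusted p = 0.00109), and Loxl1, an enzyme that cross-links elastin, 18 and 18.3 against 6.81 and 7.31 (-1.36 ± 0.21, adjusted p = 0.00623). In these 3 genes the wild-type replicates lay close to each other. The 9 fat genes tested, of 10, summed to 71.7 and 189 CPM in wild type and 61.1 and 98.3 in the mutants. The 6 mesothelium genes summed to 29.2 and 69.9 CPM in wild type and 19.7 and 24.9 in the mutants, lower in both mutants, and their part in the lower matrix genes was not tested. Msln, a mesothelial surface protein, was itself called lower, from 9.47 and 21.9 CPM to 3.68 and 5.23 (-1.81 ± 0.38, adjusted p = 0.0301), a call lost in limma-voom (adjusted p = 0.063) and with the robust prior (adjusted p = 0.0571). The fat hormone gene Lep, too low to be tested, had 0 and 2 counts in wild type and 0 and 5 in the mutants, and no other gene of the fat and mesothelium lists was at 0 in any of the 4 libraries.

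A few other matrix and stromal genes passed. DESeq2, run without a low-count filter, took in 42 collagen genes where edgeR tested 31. Of 31 collagen genes tested, 2 fell and none rose, at a median log2 fold change of -0.54, while 8 fell without wild-type replicate 1, none without mutant replicate 1 and 4 in DESeq2. Col3a1, a fibrillar collagen of reticular stroma, read 74.5 and 86.5 CPM in wild type and 39.0 and 45.9 in the mutants (-0.92 ± 0.16, adjusted p = 0.0128) and lost its call without mutant replicate 1. Of 22 fibroblast, reticular and smooth muscle genes 2 fell, with a median of -0.47, while 9 fell without wild-type replicate 1, 1 without mutant replicate 2 and none without mutant replicate 1. Acta2, smooth muscle actin, read 65.9 and 67.6 CPM against 30.7 and 42.7 (-0.87 ± 0.18, adjusted p = 0.0309) and lost its call without mutant replicate 1. Sox17, an endothelial transcription factor, was the only called gene of 21 endothelial genes, at 10.1 and 10.5 CPM against 4.94 and 4.80 (-1.08 ± 0.23, adjusted p = 0.0361), and lost its call without either of the mutant libraries. Igfbp3 and Igfbp5, which bind insulin-like growth factors and are also counted in the senescence secretome, fell: Igfbp3 from 108 and 154 CPM to 74.3 and 67.4 (-0.88 ± 0.19, adjusted p = 0.0321), Igfbp5 from 49.8 and 55.6 to 25.9 and 31.8 (-0.87 ± 0.17, adjusted p = 0.024). Igfbp3 lost its call without wild-type replicate 2 or mutant replicate 2, and Igfbp5 without mutant replicate 1. Of the 28 senescence secretome genes tested, these 2 were called, while 17 had a positive and 11 a negative log2 fold change, with a median of 0.31. At an unadjusted p under 0.05 were 7 higher and 3 lower genes, and without wild-type replicate 2 edgeR called 3 higher and 1 lower.

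**Figure D5:**
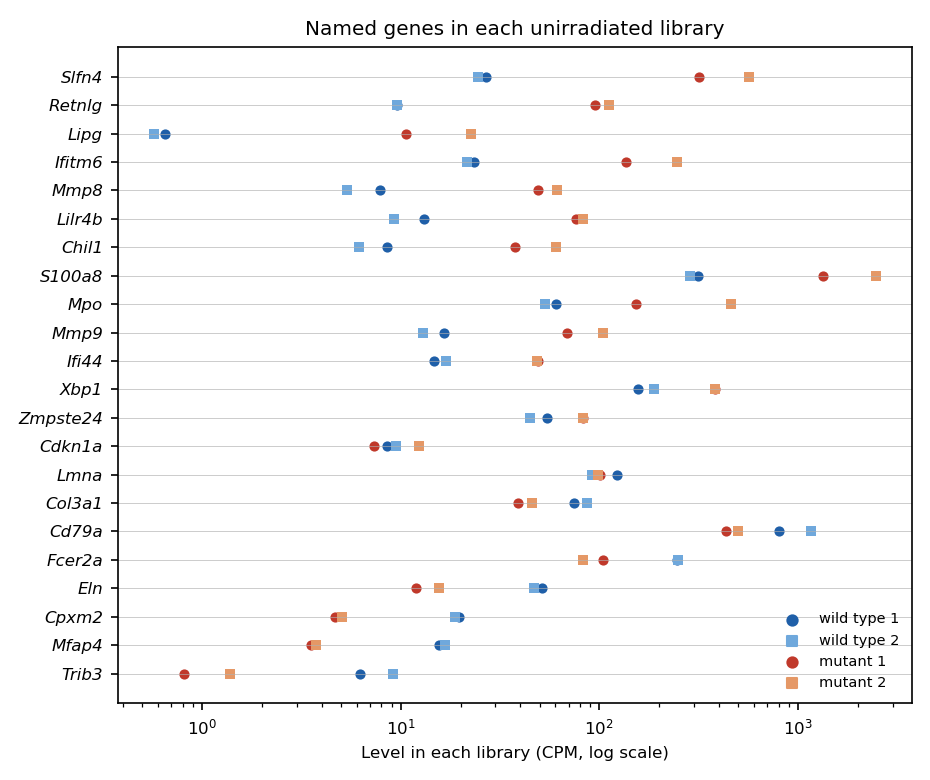
CPM of 22 named genes in each of the 4 libraries (horizontal log axis; blue wild type, red mutant, circles replicate 1, squares replicate 2). Genes from Slfn4 to Zmpste24 lie higher in the mutants, Cdkn1a and Lmna overlap, and genes from Col3a1 to Trib3 lie lower in the mutants.

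The calls among p53 target and senescence genes stand beside the 2.87% called over all autosomal genes. Lists this short cannot show a lower share than that. Of 25 p53 target genes tested, 1 rose, Trp53inp1, around a median of -0.02 on the log2 scale. DESeq2 called 1 higher and 1 lower, and 1 higher and 3 lower had an unadjusted p under 0.05 in edgeR. Trp53inp1, a p53-induced autophagy protein, read 189 and 179 CPM in wild type and 427 and 288 in the mutants (0.96 ± 0.20, adjusted p = 0.0308), and its call was lost without mutant replicate 1. Cdkn1a, which encodes the cell cycle inhibitor p21, stood at 8.52 and 9.42 CPM in wild type and 7.36 and 12.3 in the mutants (0.13 ± 0.27, adjusted p = 0.861). Cdkn2a, which encodes p16 and p19ARF, read 0.947 and 2.07 CPM against 0.958 and 1.92 (adjusted p = 0.984). The groups overlapped for both, and 0 of 12 cyclin-dependent kinase inhibitor and senescence genes passed in edgeR, limma-voom or DESeq2, with 1 at an unadjusted p under 0.05. The 35 DNA repair genes also had 0 calls by the 3 tools, with 5 at an unadjusted p under 0.05, all higher. Over all 16077 autosomal genes 2465 were at that unadjusted level.

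Cell cycle genes had small positive differences, and 0 were called by edgeR, limma-voom or DESeq2. All 30 mitotic genes and all 28 S phase genes had positive log2 fold changes, with medians of 0.39 and 0.23, and 9 and 2 of them had an unadjusted p under 0.05. Mki67, a marker of dividing cells, read 1175 and 702 CPM in wild type and 1490 and 1085 in the mutants, overlapping. The summed level of the mitotic genes was 4654 and 3240 CPM in wild type and 5421 and 4736 in the mutants, lowest in wild-type replicate 2. Without wild-type replicate 1, 19 mitotic genes were called. Cytosolic ribosomal protein genes went the other way, with a median of -0.32, or -0.48 to -0.11 with single libraries left out. Their summed level was 77296 and 99768 CPM in wild type and 67765 and 76612 in the mutants, highest in wild-type replicate 2. Among the 72 genes 71 were lower. Of these edgeR and limma-voom called 0, DESeq2 called 1, 5 had an unadjusted p under 0.05, and edgeR called 15 without wild-type replicate 1.

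A few stress response genes passed. Trib3, the pseudokinase target of ATF4 and CHOP, fell most of all the genes named here, from 6.23 and 9.13 CPM to 0.807 and 1.39 (-2.80 ± 0.36, adjusted p = 0.00307), and Atf5, a transcription factor of the integrated stress response, from 34.0 and 38.8 to 15.4 and 20.1 (-1.04 ± 0.19, adjusted p = 0.0189). Pycr1, of proline synthesis, rose from 3.19 and 2.43 CPM to 7.11 and 6.67 (1.28 ± 0.28, adjusted p = 0.0377). Atf5 lost its call without mutant replicate 1, and Pycr1 without either mutant library. The 31 genes of the integrated stress response had a median of -0.14, and 5 fell without wild-type replicate 1. The alpha-globin Hba-a2 fell from 2029 and 3483 CPM to 840 and 1039 (-1.55 ± 0.28, adjusted p = 0.0159), while its near-identical copy Hba-a1, with which it may share reads, read 10958 and 19112 CPM against 6889 and 8795 and did not pass. Hba-a2 lost its call without mutant replicate 1. Globin genes took 2.63% and 4.56% of counts in the wild-type and 1.99% in each mutant library, and the 33 erythroid genes tested had a median log2 fold change of -0.11.

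Some genes outside these lists also passed. Lipg, an endothelial lipase, rose from 0.648 and 0.571 CPM to 10.7 and 22.6 (4.74 ± 0.43, adjusted p = 0.000456). Lin28a, an RNA-binding protein that blocks let-7, rose from 2.64 and 1.21 CPM to 9.38 and 18.1 (2.79 ± 0.41, adjusted p = 0.00531). Il1f9, an interleukin-1 family cytokine, rose from 1.25 and 0.642 CPM to 9.03 and 9.28 (3.22 ± 0.34, adjusted p = 0.00108), and Prom1, a stem cell surface glycoprotein, from 3.29 and 1.78 to 9.68 and 22.2 (2.62 ± 0.42, adjusted p = 0.00823). Cpxm2 and Cpe, carboxypeptidase family members, fell: Cpxm2 from 19.7 and 18.8 CPM to 4.64 and 5.07 (-1.99 ± 0.22, adjusted p = 0.00122), Cpe from 8.92 and 17.7 to 2.93 and 3.41 (-2.06 ± 0.34, adjusted p = 0.00957). Near Lmna, within 1 Mb on either side, 0 of 73 tested genes were called in edgeR, limma-voom or DESeq2. There 8 had an unadjusted p under 0.05, as did 2465 of all 16077 autosomal genes. Within 5 Mb edgeR called 5 of 135, among them S100a8 and S100a9. That was 3.70%, near the 2.87% of all autosomal genes, and within 10 Mb the share was 2.38%.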

How the data were processed

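Spleen RNA of 4 unirradiated libraries (2 wild type, 2 Lmna R527C) was analysed from the deposited gene counts, whole-number counts per gene made by the authors; Trim Galore, Subread, featureCounts and the builds hg38 and mm10 are named in the submitters' processing notes, with neither role nor version stated there. Gene symbols came from GENCODE M21 (GRCm38): 52489 of 52636 IDs matched.

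Counts were tested with edgeR 4.0.16 (R 4.3.3; TMM, filterByExpr, minimum count 10 and minimum total 15, quasi-likelihood F test) on these 4 libraries, with Benjamini-Hochberg adjustment over 16665 genes at 0.05. CPM values are counts scaled by TMM-adjusted library size. The replicate numbers of the labels carry no stated litter or day and were not used as a block; over the 2 pairs, same-numbered samples had a correlation of deviations of 0.262. Alternatives were DESeq2 1.42.0, limma 3.58.1 (voom), other scaling, filters, a robust prior, all 8 libraries, the block and each library left out. The DESeq2 fit had no low-count filter and took in 26615 autosomal genes, so some lists held more genes there. Examples are 19 eosinophil, basophil and mast cell genes, 18 of nucleic acid sensing and interferon signalling and 26 p53 targets.

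The members and the 62 gene lists were chosen with earlier results of these data known, and lists are given as counts and medians with no set test. Named genes were the 15 highest and 15 lowest called genes of at least 5 CPM with groups not overlapping, without predicted genes and variable segments; Lmna; up to 4 called genes of smallest p in each list; up to 3 of highest level in lists without calls; and the highest of the lamin, nuclear membrane, p53 and kinase inhibitor lists with Cdkn1a and Cdkn2a. Mpo, Cebpa, Ltf, S100a9, Irf7, Isg15, Ifit1, Ifit3, Ighm, Ighd, Prdm1, Cd79a, Ms4a1, Cr2, Cd4, Spic, Adipoq, Lep and Hba-a1 fall outside that rule and were chosen after their values were seen. Promoters came from RefSeq (GRCm38.p6) for 11138 of 16075 symbols.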

Additional observations from a re-analysis of the deposited data

How the results depend on the processing

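With 2 libraries a side each gene had 2 residual degrees of freedom. The fit joined them to a prior for the spread shared across genes, with a mean of 8.19 degrees of freedom. The median standard error of a log2 fold change was 0.57 under 1 CPM and 0.16 above 100 CPM. Genes under 1 CPM were called in 0.480% of cases, against 2.12% at 1 to 5, 4.28% at 5 to 20, 3.11% at 20 to 100 and 2.97% above 100 CPM. All genes called in the comparison kept their sign in each alternative in which they were tested. DESeq2 called 200 genes lower, without a low-count filter 1235 were called (817 higher, 418 lower), and in the fit over all 8 libraries 0 were called, 0 higher and 0 lower, with 374 at an unadjusted p under 0.05. With the replicate number as a block, 1419 were called (885 higher, 534 lower); the numbers pair no samples by any label, and the cause of the change was not tested. Leaving out each library in turn gave 336 to 1909 genes called, 284 to 1157 higher and 52 to 752 lower. Cyp2e1, not called in the comparison, was called higher without wild-type replicate 2 (log2 fold change 2.29, adjusted p = 0.0326) and lower without wild-type replicate 1 (-1.71, adjusted p = 0.000367), and stood at -3.81 without mutant replicate 2 (adjusted p = 0.116). Over all alternatives, values of named genes lost a call 171 times and gained one 34 times, and 2211 stayed called or stayed not called. In genes called in neither fit this tally does not count a change of sign.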

Other observations

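Neighbouring genes rose together at several loci outside the interferon cluster. On chromosome 16 the stefin genes Stfa2l1, Gm5483, Stfa1 and BC100530, which encode cysteine protease inhibitors, rose with a median log2 fold change of 3.13; on chromosome 17 Trem1 and Trem3, activating receptors of myeloid cells, rose with 2 neighbours at a median of 2.54; on chromosome 15 Ly6c2 and Ly6g rose with 2 neighbours at a median of 2.17; and on chromosome 7 Trim30a, Trim30c and Trim30d, of an interferon-induced family, rose with Gm16464 at a median of 1.05. Members of a family can share sequence, which was not compared here, and reads could then be split between them.

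Values at day 7 after 4 Gy come from other samples and are given side by side without a comparison. Of the 372 genes higher at day 0, 301 were tested at day 7, and 266 had a positive log2 fold change, with a median of 0.73; of the 89 lower, 83 were tested, and 57 were negative, with a median of -0.32. Over all 15061 autosomal genes tested at day 7, 7128 were positive and 7933 negative, with a median of -0.02. At day 7 none of them was called in edgeR (147 had an unadjusted p under 0.05; no other tool was run there), and the difference between the days was not tested.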
